A study of Mus musculus with 9 samples.

Results

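BiP and GRP94, encoded by Hspa5 and Hsp90b1, are the main HSP70 and HSP90 chaperones inside the endoplasmic reticulum (ER). The 10 genes described here are these 2, the HSP70-related Hspa13, the nucleotide exchange factors Hyou1 and Sil1, and the J-domain genes Dnajb9, Dnajb11, Dnajc3, Dnajc10 and Dnajc1. They were taken by gene name from the 54532 genes of a table of messenger RNA levels in mouse primary hepatocytes, and all 10 were found in it.

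BiP binds hydrophobic stretches of unfolded chains and lets them go again in a cycle driven by ATP. J-domain proteins bring clients to it and start ATP hydrolysis, and exchange factors remove the ADP so that the client is released. BiP also holds the stress sensors IRE1, PERK and ATF6 in an inactive state, and a load of unfolded protein draws it away from them. GRP94 takes over folding intermediates of a narrower set of clients, such as integrins and Toll-like receptors. Hepatocytes secrete most plasma proteins and so depend heavily on this machinery.

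3 groups of 3 libraries were available, all from mice of C57BL/6 background. CKO Tu cells came from COX-2fl/fl Alb-Cre+ mice and were given tunicamycin (Tu), WT Tu cells came from COX-2fl/fl Alb-Cre- littermates and were given the same agent, and WT DMSO cells came from such littermates and were given the vehicle. The WT cells therefore also carry the floxed allele of COX-2 (the gene Ptgs2), and in CKO mice the albumin promoter drives Cre, which restricts the deletion to hepatocytes. Cells were starved in 1% FBS for 2 hours and then given vehicle, or tunicamycin at 6 μmol/L, for the next 24 hours. The drug stops the making of the sugar precursor for N-glycosylation, and glycoproteins then misfold in the ER. No vehicle-treated CKO group is among the samples, so the effect of tunicamycin within CKO cells could not be computed. The question the design puts is whether loss of COX-2 in hepatocytes alters ER stress.

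Levels are FPKM, fragments per gene length and library size after the authors' scaling of each library, so genes can be compared with each other per length. The libraries held between 14897358 and 16001484 fragments assigned to genes. Ptgs2 had 1, 1 and 2 fragments in CKO Tu cells, 8, 5 and 5 in WT Tu cells and 0, 13 and 8 in WT DMSO cells. The exact permutation p of CKO Tu over WT Tu was 0.1, the smallest that 3 libraries against 3 can give. With at most 13 fragments in a library, these counts are a limited check of the deletion. The 3 CKO Tu libraries held 3486 to 3633 fragments of Y-linked genes and 0 to 3 of Xist, while the 6 WT libraries held 0 Y-linked fragments and 20659 to 33657 of Xist. The design text calls the mice male, which the WT libraries go against, and genotype and this sex-linked difference cannot be told apart. Summed FPKM of the 6 hepatocyte markers, among them albumin, was 13850 to 14700 in CKO Tu, 15880 to 17380 in WT Tu and 15990 to 17780 in WT DMSO libraries. The lower CKO Tu sum is that of Alb, at a mean of 10280 FPKM in CKO Tu, 14280 FPKM in WT Tu and 14420 FPKM in WT DMSO libraries, while the means of the other 5, Apoa1, Ttr, Serpina1a, Hnf4a and Cps1, were higher in CKO Tu than in either WT group. The 7 endothelial markers summed to 2.91 to 3.31 FPKM in CKO Tu, 3.80 to 5.20 FPKM in WT Tu and 10.2 to 11.1 FPKM in WT DMSO libraries. The 7 Kupffer cell markers summed to 92.7 to 106.9 FPKM in CKO Tu, 96.9 to 114.8 FPKM in WT Tu and 75.1 to 92.7 FPKM in WT DMSO libraries, nearly all of it Cd68, with Vsig4 listed at 0 throughout. Adgre1, Clec4f, Csf1r, Mpeg1 and Lyz2 went the other way, with lower means in both tunicamycin groups than in WT DMSO libraries. Lyz2 averaged 0.1645 FPKM in CKO Tu, 0.1493 FPKM in WT Tu and 1.48 FPKM in WT DMSO libraries. Sums of the 7 lymphocyte and neutrophil markers were 3.03 to 4.56 FPKM in CKO Tu, 4.80 to 6.45 FPKM in WT Tu and 1.44 to 1.69 FPKM in WT DMSO libraries, mostly Camp, with Ptprc averaging 0.0082 FPKM in CKO Tu, 0.0149 FPKM in WT Tu and 0.0248 FPKM in WT DMSO libraries. Those of the 8 stellate cell markers were 8.19 to 9.95 FPKM in CKO Tu, 11.7 to 13.3 FPKM in WT Tu and 11.7 to 13.7 FPKM in WT DMSO libraries. The 5 cholangiocyte markers summed to 34.3 to 38.3 FPKM in CKO Tu, 22.8 to 24.3 FPKM in WT Tu and 22.7 to 25.9 FPKM in WT DMSO libraries. Spp1 and Sox9 carried the difference between CKO Tu and WT Tu, with Spp1 at means of 27.2 FPKM in CKO Tu and 16.7 FPKM in WT Tu libraries, whereas Krt19 was at 0.487 FPKM in CKO Tu and 0.474 FPKM in WT Tu libraries, and Epcam and Krt7 were lower in CKO Tu.

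The start-site windows of the genes are shown first, because several of them hold the element through which ER stress is known to act on BiP. RefSeq promoter windows on GRCm38.p6, of 250 bases before and 50 bases after the start site, were found for 7 of the 10 genes; Hspa13, Hyou1 and Sil1 had no entry. The ER stress response element, ERSE, is CCAAT, any 9 bases, CCACG, and is known to be bound by NF-Y at its first part and ATF6 at its second. It was found on either strand in 3 of the 7 windows, those of Hspa5, Hsp90b1 and Dnajc3, and in 0.119% of all 32851 windows of the table. The Hsp90b1 window held it at bases 39 to 57 on the gene's strand and at bases 144 to 162 on the other strand, counted from 1 at the 5′ end of the 300 bases. A single match lay at bases 186 to 204 in Hspa5 and at bases 146 to 164 in Dnajc3. The related ERSE-II, ATTGG, any base, CCACG, was found in Dnajb11 alone among the 7, at bases 258 to 268, and in 0.0365% of all windows. Dnajb9, Dnajc10 and Dnajc1 held neither. All searches counted exact letters only, so any of the windows may hold near matches that were not counted. Further searches were made for 2 elements, the XBP1 element TGACGTGG, present in 0.676% of all windows, and the ATF4 element TGATG, any base, AA, present in 3.97%, and both were found in 0 of the 7. None of the matches overlapped another. The 4 windows with a match are printed 5′ to 3′ on the strand of the gene. Capitals mark the matched end letters of ERSE and the whole ERSE-II match. The Dnajb9 window is added as that of a strongly responding gene with no match. They lie at chr2:34771840-34772139 on the plus strand (Hspa5), chr10:86705395-86705694 on the minus strand (Hsp90b1), chr14:118937682-118937981 on the plus strand (Dnajc3), chr16:22857595-22857894 on the plus strand (Dnajb11) and chr12:44210019-44210318 on the minus strand (Dnajb9).
Hspa5: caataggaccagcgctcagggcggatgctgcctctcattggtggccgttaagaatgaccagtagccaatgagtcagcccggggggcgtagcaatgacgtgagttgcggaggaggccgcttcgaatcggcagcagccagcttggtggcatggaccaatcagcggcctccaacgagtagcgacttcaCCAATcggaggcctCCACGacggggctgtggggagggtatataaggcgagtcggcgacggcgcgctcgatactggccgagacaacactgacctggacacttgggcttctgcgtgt
Hsp90b1: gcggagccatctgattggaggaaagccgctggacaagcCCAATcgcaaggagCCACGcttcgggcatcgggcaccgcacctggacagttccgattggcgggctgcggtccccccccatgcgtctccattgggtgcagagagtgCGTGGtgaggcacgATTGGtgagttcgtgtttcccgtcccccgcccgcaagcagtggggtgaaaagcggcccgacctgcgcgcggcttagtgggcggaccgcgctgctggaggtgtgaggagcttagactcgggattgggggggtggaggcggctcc
Dnajc3: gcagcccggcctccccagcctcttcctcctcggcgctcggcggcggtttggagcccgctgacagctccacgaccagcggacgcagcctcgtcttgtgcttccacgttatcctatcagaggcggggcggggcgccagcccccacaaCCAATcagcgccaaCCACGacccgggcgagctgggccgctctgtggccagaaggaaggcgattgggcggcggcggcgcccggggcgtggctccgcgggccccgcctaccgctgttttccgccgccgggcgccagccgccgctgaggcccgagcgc
Dnajb11: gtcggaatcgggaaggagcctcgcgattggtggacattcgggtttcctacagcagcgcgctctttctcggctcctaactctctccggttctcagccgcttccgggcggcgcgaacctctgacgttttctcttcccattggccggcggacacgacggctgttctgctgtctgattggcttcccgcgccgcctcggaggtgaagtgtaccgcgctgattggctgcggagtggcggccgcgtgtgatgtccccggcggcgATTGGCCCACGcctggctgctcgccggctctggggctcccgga
Dnajb9: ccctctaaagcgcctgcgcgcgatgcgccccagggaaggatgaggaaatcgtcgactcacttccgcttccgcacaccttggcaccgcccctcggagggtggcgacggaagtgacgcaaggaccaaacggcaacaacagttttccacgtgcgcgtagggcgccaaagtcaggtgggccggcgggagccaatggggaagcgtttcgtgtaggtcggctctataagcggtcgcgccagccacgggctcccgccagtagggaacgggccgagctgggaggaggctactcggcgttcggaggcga

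**Figure D1:**
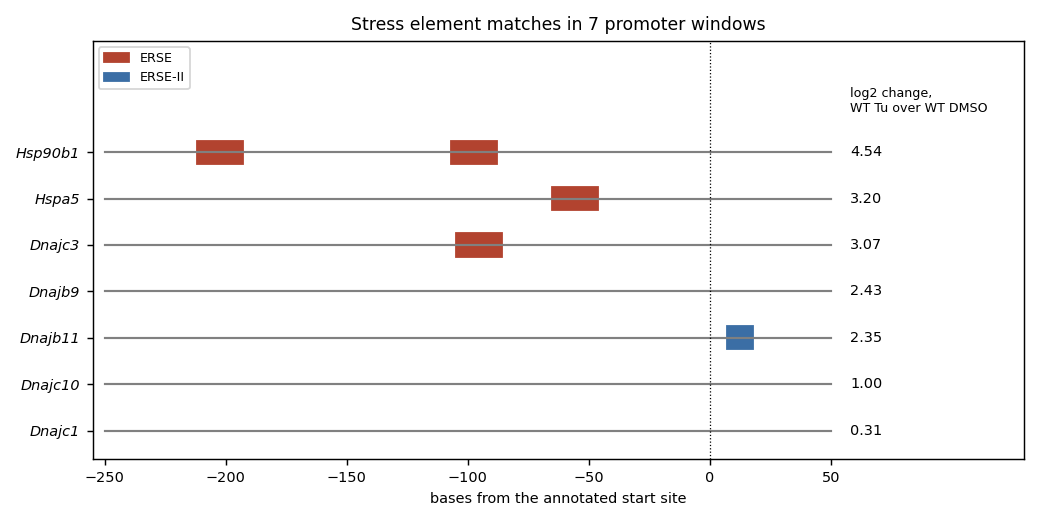
Positions of the element matches in the 7 RefSeq windows, in bases from the annotated start site, with the log2 change of WT Tu over WT DMSO at the right and genes ordered by it. Red marks ERSE and blue ERSE-II; Hsp90b1 has 2 matches and the 3 genes with ERSE have the log2 changes 4.54, 3.20 and 3.07.

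In wild-type hepatocytes, 24 hours of tunicamycin raised 9 of the 10 genes and lowered 0, with Sil1 the only one not past the threshold (limma on log2(FPKM + 1), adjusted p under 0.05 over 11858 genes). Of all genes tested, 17.7% were called higher and 15.9% lower. The median log2 change was 2.39 over the 10 genes and 0.00 over all genes (-0.00153 before rounding). Hsp90b1 was in 4th place among the 11858 genes by log2 change, Hyou1 in 12th, Hspa5 in 15th and Dnajc3 in 17th. Values of WT Tu lay wholly above those of WT DMSO for the 9 genes, and groups were separate in one direction or the other for 46.7% of all genes tested. Fewer cells of a type and less RNA per cell cannot be told apart in such bulk samples. The endothelial sum was lower in WT Tu than in WT DMSO libraries, and the lymphocyte and neutrophil sum and the Kupffer sum were higher. The higher Kupffer sum was that of Cd68, while the other detected Kupffer markers were lower. Camp likewise carried the rise of the lymphocyte and neutrophil sum. Of the other markers in that list, Cd3e had a higher mean under tunicamycin, whereas Ptprc, Cd79a, Ms4a1, S100a8 and S100a9 had lower ones. The part of these cell types in the results was not tested.

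Hspa5, on chromosome 2 from 34771970 to 34777547 (mm10), was among the most abundant messages of stressed cells. It stood at 5744, 4968 and 5224 FPKM in WT Tu libraries, against 561, 578 and 590 FPKM in WT DMSO libraries. All WT Tu values were far above all WT DMSO values, and the 3 vehicle libraries lay close together. The mean was 9.22-fold higher, with a log2 change of 3.20 ± 0.07 (SE) and an adjusted p of 1.8e-08 (limma). By FPKM it was in place 7 of all genes in every WT Tu library and in places 51 to 53 in WT DMSO libraries.

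Hsp90b1, on chromosome 10 from 86690209 to 86705509, showed the widest change of the 10. Its values were 2138, 1567 and 1652 FPKM in WT Tu, against 87.7, 70.0 and 68.8 FPKM in WT DMSO cells. The groups were far apart, with WT Tu replicate 1 the highest and WT DMSO replicate 1 the highest of its own group. The ratio of means was 23.7 and the log2 change 4.54 ± 0.13 (adjusted p = 1.2e-07, limma). A gene annotated as overlapping Hsp90b1, Gm15344, averaged 51.5 FPKM in WT Tu and 1.44 FPKM in WT DMSO cells. Fragments of the overlap cannot be assigned to one gene of the pair with certainty. Per FPKM of Hspa5 there were 0.335 ± 0.033 FPKM of Hsp90b1 in WT Tu cells and 0.131 ± 0.022 in WT DMSO cells (SD, n = 3 each).

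Hspa13, on chromosome 16 from 75745431 to 75767104, a microsomal HSP70 relative that lacks the client-binding domain, was a weaker responder at a far lower level. It had 24.6, 19.8 and 19.4 FPKM in WT Tu cells and 8.71, 7.63 and 6.82 FPKM in WT DMSO cells. The groups did not overlap, and the log2 change was 1.35 ± 0.10 (adjusted p = 2.5e-05, limma).

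The 2 exchange factors parted. Hyou1 lies on chromosome 9 from 44379490 to 44392369 (mm10). This gene, whose product is also called GRP170 and both frees BiP of ADP and holds unfolded chains itself, had 277, 276 and 265 FPKM in WT Tu cells, against 27.2, 19.5 and 20.8 FPKM in WT DMSO cells. All stressed values were at least several times the highest vehicle value, and the log2 change was 3.56 ± 0.11 (adjusted p = 1.4e-07, limma). Sil1, the exchange factor whose loss causes Marinesco-Sjögren syndrome in humans, had 22.8, 28.8 and 29.9 FPKM in WT Tu cells and 27.2, 28.3 and 31.5 FPKM in WT DMSO cells. Its groups overlapped, and the log2 change was -0.10 with a 95% interval from -0.33 to 0.13 (adjusted p = 0.49, limma). Before stress the 2 genes stood at like levels, and Hyou1 made up 43.5 ± 5.7% of their summed FPKM. In WT Tu cells it made up 90.9 ± 1.3% (SD, n = 3 each).

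The 5 J-domain genes all passed the threshold, with log2 changes from 0.31 to 3.07. Dnajc3, known as p58IPK and also as an inhibitor of eIF2α kinases, had 392, 303 and 293 FPKM in WT Tu cells, against 39.7, 37.3 and 36.9 FPKM in WT DMSO cells (log2 change 3.07 ± 0.11, adjusted p = 2.9e-07, limma). Dnajb9, known as ERdj4, which takes part in ER-associated degradation and keeps BiP on IRE1, had 527, 392 and 410 FPKM in WT Tu and 80.6, 79.3 and 81.6 FPKM in WT DMSO cells (2.43 ± 0.10, adjusted p = 6.2e-07, limma). It was the most abundant of the 5 per length in both groups. Dnajb11, known as ERdj3, which binds nascent chains directly, had 82.0, 95.6 and 92.8 FPKM in WT Tu and 18.7, 15.2 and 16.8 FPKM in WT DMSO cells (2.35 ± 0.08, adjusted p = 2.9e-07, limma). Dnajc10, known as ERdj5, a disulfide reductase as well as a J-domain protein, had 53.6, 44.0 and 41.2 FPKM in WT Tu and 22.6, 22.4 and 22.3 FPKM in WT DMSO cells (1.00 ± 0.09, adjusted p = 5.6e-05, limma). Dnajc1, a membrane J-domain protein that also contacts ribosomes, had 3.70, 3.40 and 3.98 FPKM in WT Tu and 2.90, 2.74 and 2.70 FPKM in WT DMSO cells (0.31 ± 0.07, adjusted p = 0.009, limma). None of these 5 pairs of groups overlapped, though the Dnajc1 groups were close. In mm10 Dnajc3 lies on chromosome 14 from 118937976 to 118981697, Dnajb9 on chromosome 12 from 44205559 to 44210326 and Dnajb11 on chromosome 16 from 22857845 to 22879634. Dnajc10 lies on chromosome 2 from 80315466 to 80354043 and Dnajc1 on the same chromosome from 18195654 to 18392830. Mllt10 overlaps the end of Dnajc1 on the opposite strand, and whether counting used strand is not given in the sources used here, so Dnajc1 values are uncertain.

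**Figure D2:**
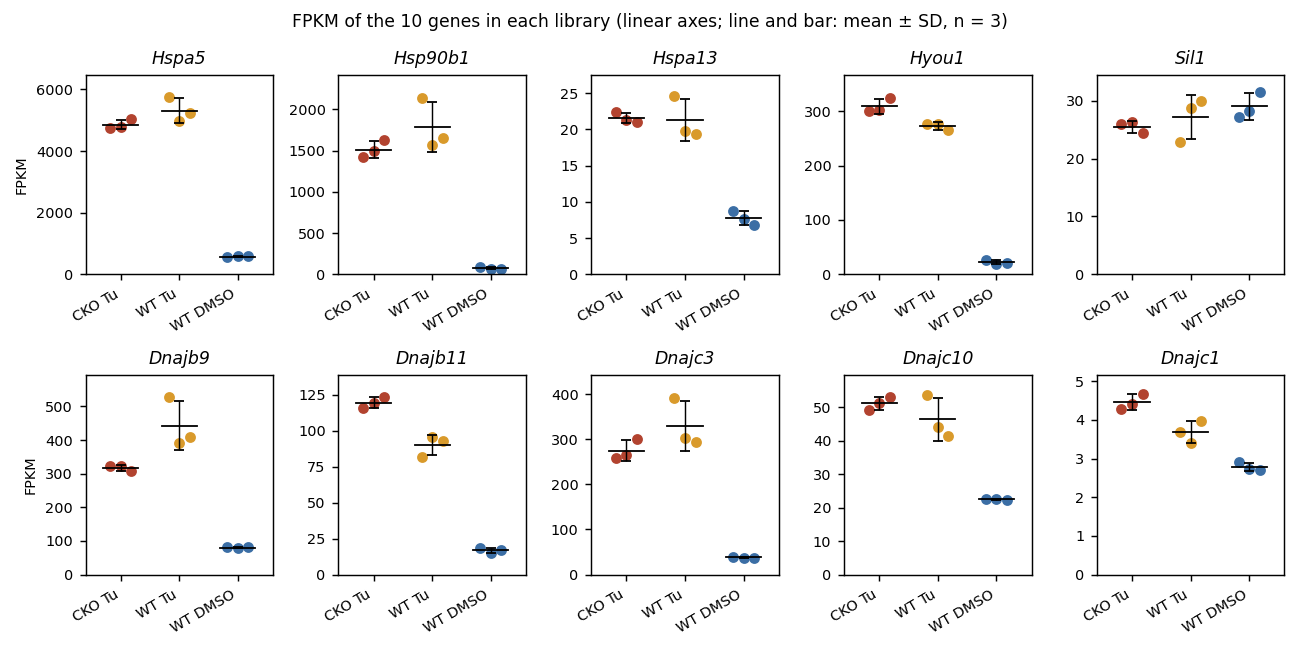
FPKM of the 10 genes in each library on linear axes that start at 0 and differ by gene, with CKO Tu, WT Tu and WT DMSO from left to right and lines and bars for mean ± SD (n = 3). Stressed libraries stand above WT DMSO libraries in 9 panels, and Sil1 is the panel in which they do not.

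Taken as 1 pool, the 10 genes made up 2.12 ± 0.10% of summed FPKM in CKO Tu, 2.27 ± 0.21% in WT Tu and 0.253 ± 0.007% in WT DMSO libraries (SD, n = 3 each). Their share of assigned fragments was 3.23 ± 0.13% in CKO Tu, 3.41 ± 0.26% in WT Tu and 0.383 ± 0.007% in WT DMSO libraries. Hspa5 alone held close to the same portion of the pool in each group, with 64.9 ± 0.5% in CKO Tu, 63.9 ± 1.6% in WT Tu and 66.1 ± 1.8% in WT DMSO cells. Hsp90b1 held 20.2 ± 0.6% of it in CKO Tu, 21.3 ± 1.5% in WT Tu and 8.66 ± 1.18% in WT DMSO cells.

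Set against BiP, the J-domain genes and the exchange factors as sums were lower in stressed WT cells, and GRP94 was higher. Within the exchange factors Hyou1 went the other way, with a mean 12.1-fold higher in WT Tu than in WT DMSO cells against 9.22-fold for Hspa5, and the lower sum came with Sil1, which had not risen. The ratio of the 5 J-domain genes to Hspa5 was 0.184, 0.169 and 0.161 in WT Tu libraries, against 0.293, 0.271 and 0.272 in WT DMSO libraries. The ratio of Hyou1 and Sil1 together to Hspa5 was 0.0522, 0.0613 and 0.0565 in WT Tu libraries, against 0.0969, 0.0826 and 0.0887 in WT DMSO libraries. The Hsp90b1 to Hspa5 ratio was 0.372, 0.316 and 0.316 in WT Tu libraries, against 0.156, 0.121 and 0.117 in WT DMSO libraries. In each of these 3 ratios the groups did not overlap, and the exact two-sided permutation p was 0.1, which is the smallest possible here and becomes 0.12 after Benjamini-Hochberg adjustment over 12 such tests. In this respect the design cannot reach p under 0.05.

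**Figure D3:**
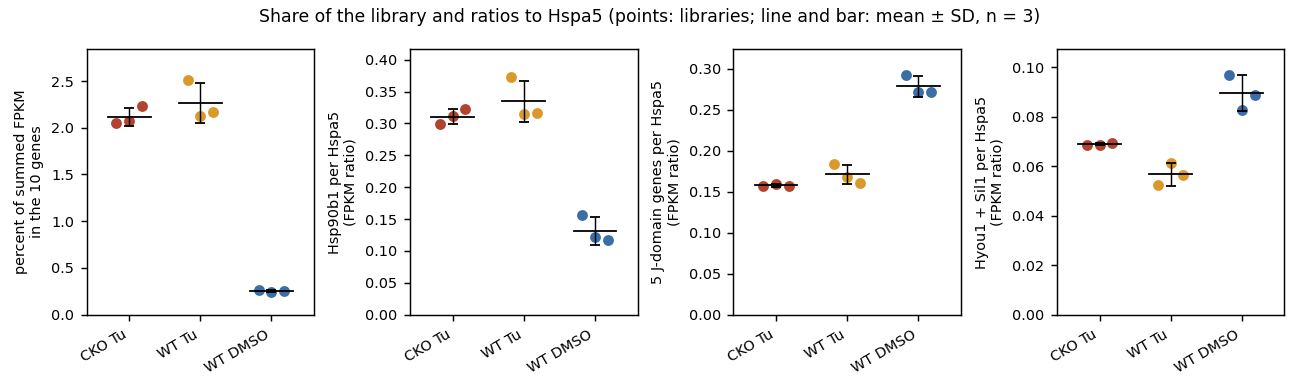
Percent of each library's summed FPKM held by the 10 genes, and FPKM ratios of Hsp90b1, the 5 J-domain genes and the 2 exchange factors to Hspa5, for CKO Tu, WT Tu and WT DMSO libraries (line and bar: mean ± SD, n = 3). The Hsp90b1 ratio was higher in both stressed groups than in WT DMSO cells, and the other 2 ratios were lower. Between CKO Tu and WT Tu cells, the exchange factor ratio was higher and the J-domain ratio lower in CKO Tu.

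Within the J-domain pool, Dnajb9 held the most in each group, 41.5 ± 2.1% of summed FPKM in CKO Tu, 48.4 ± 1.6% in WT Tu and 50.1 ± 1.0% in WT DMSO cells. Dnajc3 held 35.7 ± 2.0% in CKO Tu, 36.0 ± 1.1% in WT Tu and 23.6 ± 0.5% in WT DMSO cells. Dnajb11 held 15.6 ± 0.1% in CKO Tu, 10.1 ± 2.0% in WT Tu and 10.5 ± 0.8% in WT DMSO cells. Dnajc10 went the other way, with 6.66 ± 0.10% in CKO Tu, 5.08 ± 0.18% in WT Tu and 14.0 ± 0.3% in WT DMSO cells (SD, n = 3 each). The share of Dnajc3 was thus larger in both stressed groups than in WT DMSO cells, which for CKO Tu mixes genotype and treatment. The share of Dnajb11 was larger in CKO Tu than in either WT group.

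**Figure D4:**
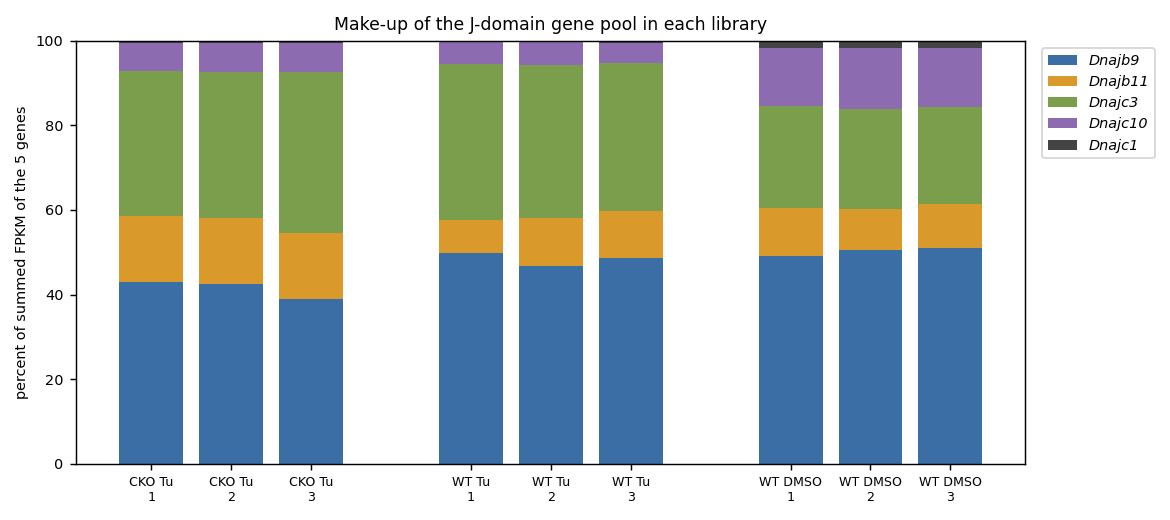
Percent of the summed FPKM of the 5 J-domain genes held by each of them, a bar per library, with CKO Tu, WT Tu and WT DMSO libraries from left to right. Dnajb11 holds 15.5% to 15.6% in CKO Tu libraries and 7.74% to 11.4% in WT Tu libraries.

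Between the genotypes under tunicamycin, 2 of the 10 genes were higher and 1 lower in CKO Tu than in WT Tu cells, and 7 did not pass the threshold. Across all genes tested, 18.7% were called higher and 19.6% lower. The median log2 change was -0.03 over the 10 genes and 0.00 over all genes (-0.00207 before rounding). The groups were separate for 4 of the 10 genes, against 51.2% of all genes tested. The members' counts thus lie near the background in both directions, and BiP and GRP94 themselves were not called. Genotype and the sex-linked difference cannot be told apart in any of these values. The hepatocyte, endothelial, stellate, and lymphocyte and neutrophil marker sums were lower, and the cholangiocyte sum higher, in every CKO Tu than in every WT Tu library, and their part in the results was not tested.

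The J-domain gene Dnajb9 fell. It had 322, 324 and 308 FPKM in CKO Tu libraries, against 527, 392 and 410 FPKM in WT Tu libraries, and the lowest WT Tu value was above the highest CKO Tu value. The log2 change was -0.47 ± 0.10 (adjusted p = 0.0065, limma), a mean of 0.718 times that of WT Tu. Dnajb11 rose, with 116, 119 and 123 FPKM in CKO Tu and 82.0, 95.6 and 92.8 FPKM in WT Tu cells (0.40 ± 0.08, adjusted p = 0.0055, limma). Its groups did not overlap either, so that the Dnajb11 to Dnajb9 ratio, chosen after its values were seen, was 0.376 ± 0.022 in CKO Tu, 0.209 ± 0.047 in WT Tu and 0.210 ± 0.021 in WT DMSO cells (SD, n = 3 each). No member changed by a log2 of 1 or more here, and both calls held under all 22 alternatives that refitted them, with adjusted p from 0.00056 to 0.025 for Dnajb9 and from 0.00051 to 0.023 for Dnajb11. Dnajc1 also rose, with 4.27, 4.42 and 4.69 FPKM in CKO Tu and 3.70, 3.40 and 3.98 FPKM in WT Tu cells (0.22 ± 0.07, adjusted p = 0.035, limma). That call is weak, since it held in 10 of 21 alternatives and the adjusted p reached 0.12 without CKO Tu replicate 3.

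BiP itself had 4753, 4795 and 5036 FPKM in CKO Tu cells, against 5744, 4968 and 5224 FPKM in WT Tu cells, with overlapping groups. The log2 change of Hspa5 was -0.13 with a 95% interval from -0.28 to 0.03 (adjusted p = 0.17, limma). Under quantile normalization it was 0.27 with an adjusted p of 0.0029 (limma). By FPKM Hspa5 was in place 5 in CKO Tu and place 7 in WT Tu libraries. Why this setting differed from the others was not tested. Hsp90b1 had 1419, 1493 and 1624 FPKM in CKO Tu cells, against 2138, 1567 and 1652 FPKM in WT Tu cells, and a log2 change of -0.23 with an interval from -0.53 to 0.07 (adjusted p = 0.21, limma). Its groups overlapped because the highest CKO Tu value was above the lowest WT Tu value.

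Hyou1 had 300, 303 and 325 FPKM in CKO Tu cells, against 277, 276 and 265 FPKM in WT Tu cells. Every CKO Tu value was above every WT Tu value, and the log2 change of 0.18 had an interval from -0.06 to 0.42 (adjusted p = 0.22, limma). It passed the threshold in 3 of 22 alternatives, with the lowest adjusted p of 0.03 without WT DMSO replicate 1. The ratio of the 2 exchange factors to Hspa5 was 0.0686, 0.0686 and 0.0694 in CKO Tu libraries, all above the WT Tu values given above (exact permutation p = 0.1, 0.12 adjusted). That of the 5 J-domain genes to Hspa5 was 0.1575, 0.1594 and 0.1566 in CKO Tu libraries, all below the WT Tu values (exact permutation p = 0.1, 0.12 adjusted). Sil1 had 26.0, 26.3 and 24.3 FPKM in CKO Tu cells, against 22.8, 28.8 and 29.9 FPKM in WT Tu cells, all CKO Tu values lying within the WT Tu range (adjusted p = 0.58, limma).

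The remaining 3 genes did not pass either. Dnajc3 had 258, 266 and 300 FPKM in CKO Tu and 392, 303 and 293 FPKM in WT Tu cells (log2 change -0.25, adjusted p = 0.10, limma). Dnajc10 had 49.0, 51.3 and 53.0 FPKM in CKO Tu and 53.6, 44.0 and 41.2 FPKM in WT Tu cells (0.15, adjusted p = 0.22, limma). Hspa13 had 22.4, 21.3 and 21.0 FPKM in CKO Tu and 24.6, 19.8 and 19.4 FPKM in WT Tu cells (0.02, adjusted p = 0.88, limma). In all 3 WT Tu replicate 1 was the highest of the 6 libraries; for Dnajc10 and Hspa13 the other WT Tu values lay below every CKO Tu value.

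WT Tu replicate 1 stood apart for this set. It was the highest of the 3 WT Tu libraries in 7 of the 10 genes (70.0%), against 42.0% of all genes tested, and it also had the highest share of mitochondrial fragments, 6.87%. It was 1.33 times the mean of the other two for Hsp90b1 and 1.32 times for Dnajb9 and Dnajc3, but 0.870 times for Dnajb11 and 0.777 times for Sil1. Without that library the log2 change of Dnajb9 was -0.33 (adjusted p = 0.00056), that of Dnajb11 0.34 (0.0096), and that of Dnajc1 0.22 (0.054) in limma. Dnajc10 was then called higher in CKO Tu, at 0.26 with an adjusted p of 0.0042. The log2 changes that had not passed were -0.09 for Hsp90b1, -0.12 for Dnajc3, -0.07 for Hspa5 and -0.19 for Sil1 without it, against -0.23, -0.25, -0.13 and -0.08 with it, and they did not pass in either fit.

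**Figure D5:**
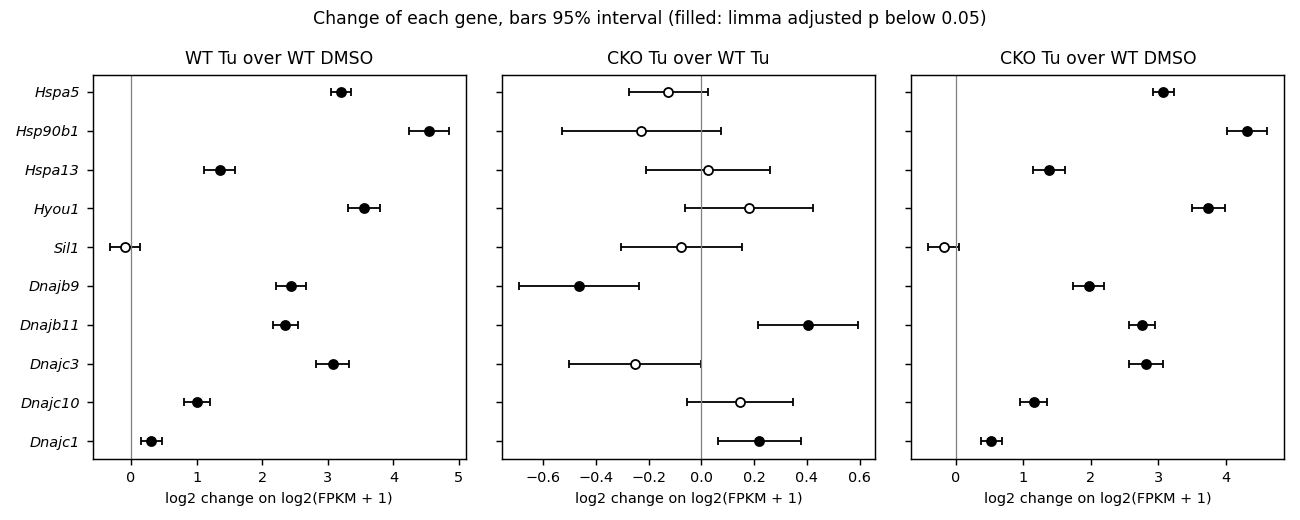
Change of each gene on the log2(FPKM + 1) scale in the 3 comparisons, with 95% intervals from limma and filled points for adjusted p under 0.05. The middle panel has its own, narrower axis; Dnajb9 at -0.47, Dnajb11 at 0.40 and Dnajc1 at 0.22 are its filled points.

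Stressed CKO cells beside unstressed WT cells differ in genotype and treatment at once, and this comparison shares libraries with both of the others. In it 9 of the 10 genes were higher and 0 lower by the threshold, where 25.3% of all genes tested were called higher and 24.2% lower. The 10 genes were all separate between the groups, against 63.0% of genes tested, and Sil1 was the one that lay below. Log2 changes were 3.07 for Hspa5, 4.31 for Hsp90b1, 3.74 for Hyou1, 2.82 for Dnajc3, 2.75 for Dnajb11, 1.97 for Dnajb9, 1.38 for Hspa13, 1.15 for Dnajc10 and 0.53 for Dnajc1, with adjusted p from 9.1e-09 to 0.00028 (limma). Sil1 had a log2 change of -0.18 (adjusted p = 0.18, limma), and was called lower without WT Tu replicate 1, at an adjusted p of 0.036, although that library is not in the comparison and enters only through the shared spread.

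Genes outside the set whose pattern over the 9 libraries was most like that of Hspa5 were, in order, Calr, Pdia6, Syvn1, Manf and Piga, with root mean square differences of 0.171 to 0.238 on the log2 scale after centring each gene. Among the members tested, Dnajc3 was nearest to Hspa5, at 0.135. Nearest to Hsp90b1 were Herpud1 (0.163), Pdia4, the overlapping Gm15344, Creld2 and Sel1l (0.404). These likenesses were taken over 6793 genes with a mean of at least 5 FPKM and carry no test, and Dnajc1 was below that level.

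Neighbouring systems were counted in the same fits. Of 12 other partners and regulators of BiP, 10 were higher and 1 lower in WT Tu than in WT DMSO cells. The shares of all genes tested, for this and the lists that follow, were 17.7% higher and 15.9% lower in WT Tu over WT DMSO, and 18.7% higher and 19.6% lower in CKO Tu over WT Tu. Sdf2l1, a partner of Dnajb11, averaged 419 FPKM in WT Tu and 8.62 FPKM in WT DMSO cells, the widest change of the list. Creld2 averaged 996 FPKM in WT Tu and 62.2 FPKM in WT DMSO cells, and Manf, a secretable factor that binds BiP, 291 FPKM in WT Tu and 22.3 FPKM in WT DMSO cells. Ficd, the enzyme that AMPylates BiP, had a log2 change of 1.64 (adjusted p = 1.6e-05, limma). Cnpy2 was the one that fell, and it was also the only one of the 12 called in CKO Tu over WT Tu, at 17.0 FPKM in CKO Tu and 12.6 FPKM in WT Tu cells. All 11 oxidative folding enzymes of the ER rose in WT Tu over WT DMSO cells, led by Pdia4 with means of 1648 FPKM in WT Tu cells and 88.3 FPKM in WT DMSO cells. In CKO Tu over WT Tu cells 4 of the 11 rose and 1 fell. The largest of these rises was that of Ero1l, which reoxidises protein disulfide isomerase, at 78.7 FPKM in CKO Tu and 37.7 FPKM in WT Tu cells.

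Of the 8 genes of the calnexin cycle, 6 rose and 0 fell in WT Tu over WT DMSO cells, led by Calr with means of 1221 FPKM in WT Tu cells and 155 FPKM in WT DMSO cells. In CKO Tu over WT Tu cells 0 of the 8 rose and 2 fell, Uggt2 and Calr. Of 7 transducers of the unfolded protein response, 4 rose and 0 fell in WT Tu over WT DMSO cells, led by Ddit3, which encodes CHOP, with means of 487 FPKM in WT Tu cells and 46.4 FPKM in WT DMSO cells. In CKO Tu over WT Tu cells 2 of the 7 rose and 1 fell. Xbp1 rose, at 125 FPKM in CKO Tu and 93.1 FPKM in WT Tu cells, Eif2ak3, which encodes PERK, rose too, and Ddit3 fell, at 332 FPKM in CKO Tu and 487 FPKM in WT Tu cells. Outside the ER lumen, 3 of 27 tested genes of the cytosolic HSP70 and HSP90 system rose and 6 fell in WT Tu over WT DMSO cells, led by the rise of Bag3 and the fall of Dnajb2. Of 10 mitochondrial ones 3 rose and 0 fell. Among 4 J-domain proteins of the ER membrane that face the cytosol, 0 rose and 1 fell. The median log2 change was -0.14 over the cytosolic list, 0.13 over the mitochondrial list, -0.12 over these 4 and 0.90 over the partners of BiP.

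In WT Tu over WT DMSO, scaling bore on counts over all genes more than on the calls of the 10. With libraries scaled to total fragments, the median log2 change of all genes in WT Tu over WT DMSO was -0.11 and the calls were 1430 higher and 3108 lower, where the authors' scaling gave 2099 and 1882. The split was 1739 to 2375 with upper-quartile scaling. In CKO Tu over WT Tu total-fragment scaling gave 2597 higher and 1880 lower, against 2213 and 2325. Voom on recovered fragments, which changes the fit as well as the scaling, gave 1497 higher and 3375 lower with a median of -0.14 in WT Tu over WT DMSO, and 2821 higher and 1979 lower in CKO Tu over WT Tu. Under each of these settings 9 of the 10 genes were called higher in WT Tu than in WT DMSO cells, and Hsp90b1 stood at 4.41 with total-fragment scaling. The calls of the 10 in CKO Tu over WT Tu were less steady. Voom also called Hyou1 and Dnajc10 higher there, and quantile normalization called Hspa5 higher, at 0.27.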

How the data were processed

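The samples are 9 RNA libraries of mouse primary hepatocytes, which the sample titles put in 3 groups of 3. The authors used HISAT2 2.2.1, featureCounts 1.5.0-p3 and mm10, per the submitters' processing notes. The annotation release and strand setting are not given in the sources used here. The authors deposited FPKM for 54532 genes. FPKM times gene length gave whole multiples of 1 step per library for 100% of values. The tolerance was 0.001 fragments at low counts and grew with the count at high ones. Fragments and the authors' scaling, 0.948 to 1.07 times the fragment total, were thus recovered from the deposited FPKM.

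The 11858 genes that reached FPKM 1 in 3 or more libraries, the 10 described among them, were fitted as log2(FPKM + 1) with limma 3.58.1 (R 4.3.3), using every library, 1 mean for each group and a spread that follows intensity. Fold changes on this scale understate those of low genes. Tests were two-sided with Benjamini-Hochberg adjustment over all genes tested and a threshold of 0.05. Ratios were compared by exact permutation of libraries. The script was tested on simulated data. The labels do not say that replicates were separate animals, so the p-values cover only library-to-library spread, which may be technical. Same-numbered libraries did not deviate together (correlations -0.0967 to 0.0208, 0 of 9 pairs over 0.1).

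The 10 genes, the lists and the tests were chosen with earlier results of these data known. Named genes are the 10, the up to 4 genes of each list with the largest called change in WT Tu over WT DMSO and up to 2 in CKO Tu over WT Tu, and the 5 most like Hspa5 and Hsp90b1; of these the text gives those that lead. Protein sequences were not used here. Alternatives were another pseudocount, filter, scaling, voom on recovered fragments, only the groups compared, a replicate block, no trend, library weights, a minimum change of 1 and leaving out each library; removal of the trend with GC content, alone and with the block, was chosen after seeing the data.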

Additional observations from a re-analysis of the deposited data

How the results depend on the processing

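The 9 rises in WT Tu over WT DMSO and in CKO Tu over WT DMSO kept their direction and their call under every alternative that gave a value, apart from Dnajc1, which a filter of FPKM 5 leaves out and a minimum log2 change of 1 does not pass. Over single genes and the 22 refits, which leave aside the minimum change of 1, 631 values kept direction and side of the threshold, 11 lost a call, all of them Dnajc1 in CKO Tu over WT Tu, 8 gained one and 7 changed sign. The sign changed for Sil1 in WT Tu over WT DMSO, to 0.0145 with the GC trend removed, alone or with the replicate block, and to 0.0177 without WT Tu replicate 1; leaving out single libraries gave -0.170 to 0.0177. In CKO Tu over WT Tu it changed for Hspa5, to 0.274 under quantile normalization, and for Hspa13, to -0.00107 without CKO Tu replicate 1, -0.0210 without WT Tu replicate 2 and -0.0344 without WT Tu replicate 3, in a range of -0.0344 to 0.129 over single libraries left out; the cause was not tested. Members called higher in CKO Tu over WT Tu numbered 1 with no filter, with a filter of FPKM 5 and with the replicate block, against 2, and 4 with voom, where Hyou1 and Dnajc10 joined. Leaving out single libraries gave 1 to 3, and 0 to 1 members lower in CKO Tu over WT DMSO; that last count was also 1 with a weight per library. With a minimum change of 1, 0 members were called higher and 0 lower in CKO Tu over WT Tu, and over all genes 376 were called in WT Tu over WT DMSO, 437 in CKO Tu over WT Tu and 857 in CKO Tu over WT DMSO.

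The replicate block, with numbers that do not pair the libraries, gave 3696 calls in WT Tu over WT DMSO, where the fit without it gave 3981; own number was the best match in 2 of 9 comparisons of same-numbered libraries between groups. The member value with the fewest fragments, Dnajc1 in WT DMSO replicate 3, rests on 497. With 3 libraries a group, a gene that misses the threshold is not shown to be unaltered, and the exact tests of the ratios cannot pass it.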

Other observations

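The cytosolic and mitochondrial relatives of BiP and GRP94 were measured in the same libraries. Of 27 tested genes of the cytosolic HSP70 and HSP90 system, 3 were higher and 12 lower in CKO Tu than in WT Tu cells (limma, adjusted p under 0.05), where 18.7% of all genes tested were higher and 19.6% lower. Among them were Hspbp1, a cytosolic exchange factor, at 22.8 FPKM in CKO Tu and 35.9 FPKM in WT Tu cells (log2 change -0.63, adjusted p = 0.00018) and, higher, Bag2 at 6.12 FPKM in CKO Tu and 3.16 FPKM in WT Tu cells (0.77, adjusted p = 0.0059). The constitutive Hspa8 averaged 442 FPKM in CKO Tu and 584 FPKM in WT Tu cells (-0.40, adjusted p = 0.00053) and Hsp90ab1 534 FPKM in CKO Tu and 737 FPKM in WT Tu cells (-0.46, adjusted p = 0.00018). Of 10 mitochondrial genes 0 were higher and 5 lower, among them Grpel2, the exchange factor of the mitochondrial HSP70, at 21.5 FPKM in CKO Tu and 35.1 FPKM in WT Tu cells (-0.68, adjusted p = 0.0006), and Hspe1 at 74.6 FPKM in CKO Tu and 120 FPKM in WT Tu cells (-0.67, adjusted p = 0.0014). Hspa8, Hsp90ab1 and Hspd1 were chosen after their values were seen, the last with 201 FPKM in CKO Tu and 287 FPKM in WT Tu cells. The median log2 change was -0.12 over the cytosolic list, -0.28 over the mitochondrial list and -0.03 over the 10 ER genes. The difference between these lists was not tested, and Dnajb12, a J-domain protein of the ER membrane that faces the cytosol, was higher at 28.1 FPKM in CKO Tu and 21.7 FPKM in WT Tu cells (0.36, adjusted p = 0.0024).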
